A study of Mus musculus with 17 samples.

Results

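Epithelial-mesenchymal transition factors of the Snail, Twist and Zeb families, with the marker genes Vim and Cdh2, were followed across 17 mammary tumors. The 9 genes were taken by name: Snai1, Snai2, Snai3, Twist1, Twist2, Zeb1, Zeb2, Vim and Cdh2. A probe was counted as a member if its gene name in the scanner files was one of these, or if its RefSeq identifier was that of a member. The older names Zfhx1a and Zfhx1b, under which the array design lists Zeb1 and Zeb2, were also accepted. This gave 9 of the 27670 gene names and 15 of the 41174 probes on the array. Snai1, Snai2, Snai3, Twist1, Twist2 and Zeb1 have 1 probe each, Vim has 2, Cdh2 has 3 and Zeb2 has 4. The Zeb2 probes A_52_P526372 and A_52_P587928 were taken by the older name alone.

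In an epithelial-mesenchymal transition, epithelial cells lose cell junctions and apical-basal polarity and gain a spindle shape and motility. The zinc finger proteins of the Snail family (Snai1, Snai2 also called Slug, and Snai3), the basic helix-loop-helix proteins Twist1 and Twist2, and the zinc finger homeodomain proteins Zeb1 and Zeb2 drive this change, largely by repressing junction genes such as Cdh1, the gene of E-cadherin. Snail and Zeb proteins bind E-box sequences in the promoters they repress. Vim encodes vimentin, the intermediate filament protein of mesenchymal cells, and Cdh2 encodes N-cadherin, which can take the place of E-cadherin. In the mammary gland, Snai2 is also known as a gene of basal epithelial and progenitor cells, and fibroblasts, endothelial cells and leukocytes express Vim and Zeb2.

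The tumors arose in FVB mice that carry a p75 CUX1 (9 tumors) or a p110 CUX1 (8 tumors) transgene driven by mouse mammary tumor virus sequences, and each label names a different mouse. CUX1 is a homeodomain transcription factor, and p75 and p110 are short isoforms of it. Epithelial cells were dissected by laser from frozen sections, and amplified RNA was hybridized on 2-color arrays against one common mouse reference RNA, with dyes swapped, so each ratio below is a log2 value of tumor against reference, averaged over a tumor's arrays. By histology there were 4 p75 adenosquamous carcinomas, 3 p75 and 6 p110 solid carcinomas, 1 adenomyoepithelioma of each transgene, 1 p75 adenocarcinoma and 1 p110 adenoma, and the clusters drawn in the study from the expression of Wnt genes, which encode the ligands, put 5 tumors in a high-Wnt, 5 in a medium-Wnt and 7 in a low-Wnt group, with both transgenes in each. All 18 p75 arrays were scanned in a different year from the 20 p110 arrays. Transgene and scan year therefore cannot be told apart. The age of the mice is not given in the sources used here.

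Not every library showed the labelled epithelium equally. A list of 17 epithelial junction and keratin genes had a summed tumor signal (linear, normalized) of 122013 to 563785 in 16 tumors, and of 5296 in p110-121, a solid carcinoma, where 4 of the 17 genes were above background. The 10 immune markers summed to 141136 in p110-121 and to 4757 to 19631 in the others. The share of all probes above background was 18.2% to 61.8%, and was below 25% in p110-98, p110-225 and p110-374 alone. The high-Wnt against low-Wnt differences of the main probes of Snai1, Snai2, Twist1, Twist2, Zeb1, Zeb2 and Vim, the gene lists and the relations are also given without these 3 dim tumors, a choice made after seeing the data. In bulk RNA, fewer cells of a type and less RNA per cell cannot be told apart.

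The 4 Zeb2 probes gave unlike values, so the first 30 bases of each 60-base probe are shown, in the order of the number of tumors in which it was above background. All lie on the minus strand of chromosome 2 in mouse build mm7, at chr2:44994565-44994624 for A_52_P596008 (accession NM_015753), chr2:44991829-44991888 for A_52_P526372 (NM_001033635), chr2:45028303-45028362 for A_52_P587928 (AK031541) and chr2:44995859-44995918 for A_51_P121206 (NM_015753). The mm7 gene models were not used here, so the exon or untranslated part that a probe matches is not given.
A_52_P596008: ctgtattttcgactgaaaattccactttct
A_52_P526372: tacgtgggggaaaatatatgtgaaagcaat
A_52_P587928: tgcagggctataagaacaaatgttcggatg
A_51_P121206: acgaggaagacaatatggaagatggcatgg

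The E-box that Snail and Zeb proteins are known for, CAGGTG or its reverse complement CACCTG, was looked for in the 250 bases before the start of each gene that the RefSeq promoter table holds (Snai1, Twist1, Twist2, Vim and the 4 starts of Zeb2, build GRCm38.p6). It was found once, before Snai1, 126 bases upstream of the start, and 17.2% of 32851 promoters of that length hold at least 1 match. The Snai1 stretch, chr2:167537945-167538194 on the plus strand, is shown with the match in capitals, because Snai1 is both a repressor that binds this motif and a gene that carries it. The match is a description of these letters, not of binding.
Snai1: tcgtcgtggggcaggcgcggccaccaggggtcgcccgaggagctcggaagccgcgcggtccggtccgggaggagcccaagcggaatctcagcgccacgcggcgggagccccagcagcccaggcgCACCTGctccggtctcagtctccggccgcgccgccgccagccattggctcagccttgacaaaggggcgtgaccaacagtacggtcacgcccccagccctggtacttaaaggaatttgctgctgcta

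In most tumors 4 of the 9 genes could be followed. A probe was called measured in a tumor if Feature Extraction marked the tumor's channel as well above background on all its arrays. Snai2 and Vim were measured in all 17 tumors, Zeb1 in 15 and Zeb2, by its brightest probe A_52_P596008, in 14. Twist2 was measured in 8 tumors, Snai1 in 6, Snai3 in 2 (p75-94 and p75-129) and Twist1 in 1 (p110-314). None of the 3 Cdh2 probes was well above background in the color of any tumor on any array, while the reference was above background for 1 of them, A_51_P262773, on 21 of 38 arrays. The second Vim probe, A_52_P287532, and the Zeb2 probe A_51_P121206 were likewise measured in 0 tumors. Where a tumor is not above background but the reference is, the ratio stands as an upper limit for that tumor. The reference was above background on all 38 arrays for the main probes of Snai1, Snai2, Twist2, Vim, Zeb1 and Zeb2 and on 36 for Twist1. It was so on 21 arrays for the Zeb2 probe A_52_P526372, on 14 to 16 for Snai3 and the other 2 Zeb2 probes, on 5 for A_52_P287532 of Vim and on 0 for the other 2 Cdh2 probes, and a ratio with neither color above background bounds nothing.

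**Figure D1:**
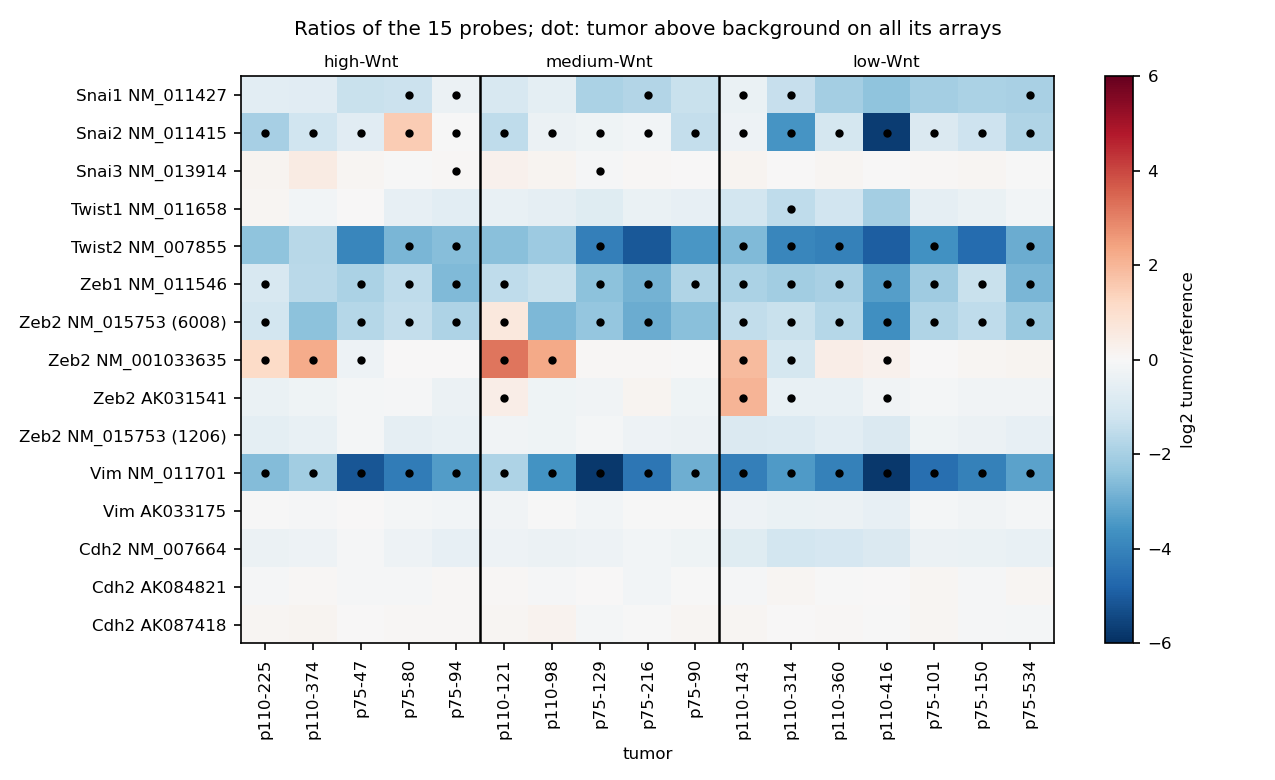
Log2 ratio of tumor over reference (color) for the 15 probes (rows) in 17 tumors (columns, ordered by Wnt cluster), with a dot where the tumor was above background on all its arrays. Snai2 and the upper Vim row carry 17 dots each, and the 3 Cdh2 rows carry 0.

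Snai2 (A_51_P305547, mm7 chr16:14250104-14250163, plus strand) had the widest range of the 15 probes, from -5.69 in p110-416 to 1.51 in p75-80, with a median of -1.07. In the high-Wnt tumors its ratio was 1.51 in p75-80, -0.04 in p75-94, -0.67 in p75-47, -1.20 in p110-374 and -1.97 in p110-225. In the low-Wnt tumors it went from -5.69 through a median of -1.24 to -0.30 in p110-143. The clusters overlapped, since p110-225 lay below 5 of the low-Wnt tumors. The mean was 1.59 ± 0.82 (SE of limma) higher in high-Wnt tumors (n = 5 against 7, exact two-sided permutation test p = 0.136, adjusted p = 0.490). Without the dim tumors it was 2.33, and without p110-416 it was the lowest of the leave-one-out values, 0.99. The 5 medium-Wnt tumors went from -1.50 in p110-121 to -0.17 in p75-216.

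The 2 lowest Snai2 values, -5.69 in p110-416 and -3.53 in p110-314, fell in tumors with the lowest summed signal of the 8 basal and myoepithelial markers. That sum was 6418 in p110-416 and 11444 in p110-314, and at least 64265 in the other 15 tumors. By cluster the basal sum was 226916 to 546758 in high-Wnt and 6418 to 128873 in low-Wnt tumors, with no overlap. Taken singly, 1.48% of all probes did not overlap between these clusters. Of the 8 basal markers 0 were called, with a median difference of 1.31, and of 0.0046 without the dim tumors. Among 11273 probes measured in at least 12 tumors, the gene whose ratios followed Snai2 most closely was Trp63, one of these markers (Pearson r = 0.87 over 17 tumors, 0.84 within the 9 p75 and 0.83 within the 8 p110 tumors). Trp63 encodes p63, a transcription factor of basal epithelial cells. Tpst1 (r = 0.87) and Rcn1 (r = 0.86) came next. The part of basal cells in the Snai2 values was not tested.

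Snai1 (A_51_P165087, mm7 chr2:167283227-167283286, plus strand), the family's founding repressor of E-cadherin, was measured in p75-94 (-0.34) and p75-80 (-1.31) of the high-Wnt tumors. The other 3 high-Wnt tumors stood at -0.64 (p110-225), -0.67 (p110-374) and -1.33 (p75-47), as upper limits. In the low-Wnt tumors the ratio went from -2.41 to -0.40 with a median of -1.93, and the 3 measured tumors were p110-143 (-0.40), p110-314 (-1.36) and p75-534 (-1.93). The 2 clusters overlapped through p110-143, and the mean was 0.86 ± 0.32 (SE) higher in high-Wnt tumors (exact permutation p = 0.0354, n = 5 and 7, adjusted p = 0.305 by limma). The tumor channel was also taken without dividing by the reference, in 2 normalizations that differed. For Snai1 that difference was -0.03 with the tumor channel quantile normalized and 0.60 with the signals after loess and Aquantile, a choice added after seeing the data. Without the dim tumors the difference of the ratios was 0.73. Snai3 (A_51_P356186), the third Snail family member, stayed between -0.06 and 0.47 in all tumors, and its 2 measured values were 0.08 and -0.06.

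Twist2 (A_51_P165504, mm7 chr1:91755751-91755809, plus strand), a factor of mesenchymal cells, lay below the reference in every tumor, from -5.09 in p75-216 to -1.67 in p110-374. The 2 measured high-Wnt tumors, p75-94 and p75-80, had -2.56 and -2.73. The 5 measured low-Wnt tumors had -2.63 (p110-143), -2.99 (p75-534), -3.64 (p75-101), -3.93 (p110-314) and -4.06 (p110-360). The measured values of the clusters thus overlapped at p110-143. Over all tumors the mean was 1.17 ± 0.53 (SE) higher in high-Wnt tumors (exact permutation p = 0.0354, n = 5 and 7, limma adjusted p = 0.411), and the high-Wnt values included -1.67 and -2.40 as upper limits in the dim tumors p110-374 and p110-225. Without the dim tumors the difference was 0.76 (limma adjusted p = 0.826).

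Twist1 (A_52_P20906, mm7 chr12:31805579-31805638, plus strand), the mesoderm factor of the family, was measured in p110-314 alone, at -1.52. In the 9 p75 tumors, where it was not measured, its ratio lay between -0.74 and 0.02. Of the 3 p75 solid carcinomas, 1 was above background on some but not all of its arrays. The high-Wnt mean of -0.22 was 0.76 ± 0.27 (SE) above the low-Wnt mean of -0.99 (exact permutation p = 0.0354, n = 5 and 7, limma adjusted p = 0.264). The difference was 0.043 with the quantile-normalized tumor channel and 0.22 after loess and Aquantile, and without the dim tumors it was 0.62. No high-Wnt tumor was above background on any array, and neither was the tumor with the lowest ratio, p110-416 at -2.06. With arrays as observations and the slide as a random block, this was the 1 member probe that passed, with a limma adjusted p of 0.0215. That fit takes 38 dye-swapped or repeat arrays of 17 tumors as observations, so its n exceeds the number of mice and its p is too small. Under the other alternatives its adjusted p was 0.149 to 0.915.

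Zeb1 (A_52_P546635) lay below the reference in all tumors, between -3.29 in p110-416 and -0.94 in p110-225. Its measured high-Wnt values were -0.94 in p110-225, -1.52 in p75-80, -1.89 in p75-47 and -2.66 in p75-94, and p110-374 had a limit of -1.64. The low-Wnt tumors went from -3.29 through a median of -2.11 to -1.35 in p75-150. These ranges overlapped, and the mean difference of 0.48 ± 0.36 (SE) was smaller than the SD in either cluster, 0.63 in each (exact permutation p = 0.225, n = 5 and 7). With median centering in place of loess it was -0.34, and without the 3 dim tumors it was 0.19. Over 29 alternatives, which include each tumor left out, the Zeb1 difference ranged from -0.34 to 0.91. Zeb1 was measured in all 9 p75 tumors, where the highest ratio, -1.35, belonged to a solid carcinoma and the lowest, -2.82, to the adenocarcinoma.

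The 4 Zeb2 probes are described one by one. By A_52_P596008 the ratio was below 0 in 16 tumors, from -3.68 in p110-416 to -1.08 in p110-225, and above 0 in p110-121, at 0.63. The high-Wnt values were -1.08 (p110-225), -1.42 (p75-80), -1.69 (p75-47) and -1.84 (p75-94), with a limit of -2.46 in p110-374. The low-Wnt tumors lay between -3.68 and -1.34 with a median of -1.71, so the clusters overlapped, with a difference of 0.27 ± 0.55 (SE, exact permutation p = 0.601, n = 5 and 7). That difference was -0.01 without p110-416, -0.56 with median centering, -0.26 with the signals processed by Feature Extraction and 0.32 without the dim tumors. It was -0.38 with the quantile-normalized tumor channel but 0.13 after loess and Aquantile.

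By A_52_P526372, a Zeb2 probe whose accession was not among those of the RefSeq table used and which is assigned by its name in the files, the tumors split by transgene. It was measured in 7 of the 8 p110 tumors and in 1 of the 9 p75 tumors, p75-47. The p110 ratios were 3.19 (p110-121), 2.27 (p110-98), 2.24 (p110-374), 1.91 (p110-143), 1.17 (p110-225), 0.27 (p110-416) and -1.06 (p110-314), with 0.40 in p110-360, which was not measured. In p75 tumors the ratio lay between -0.30 and 0.14. Of all 41174 probes, 50 (0.121%) were measured in at most 1 p75 and at least 7 p110 tumors, and 7 (0.017%) in at most 1 p110 and at least 8 p75 tumors. In no p75 solid carcinoma did any array put the probe well above background, and the 6 p110 solid carcinomas, 5 of them measured, had a mean tumor signal after loess and Aquantile of 9.35 (log2) against 6.73, the latter not above background. The common reference was also brighter there, at 7.13 to 9.75 (log2 signal) with all p110 tumors against 6.35 to 6.88 with the 3 p75 solid carcinomas. The difference of the log2 ratios was -0.87 ± 0.70 (SE, p75 minus p110, limma adjusted p = 0.830), and -0.43 without p110-121 and -0.34 with the tumor in Cy3. The difference of the tumor channel was -2.44 quantile normalized and -2.62 after loess and Aquantile (limma adjusted p of the latter = 0.202). As the p75 side was not above background on any array, these 2 values are not exact. The bound after loess and Aquantile was a p110 signal at least 5.65 times higher.

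The reference itself varied for A_52_P526372. The same reference RNA lay on every array, yet its normalized log2 signal for this probe went from 6.35 to 9.75, a range of 3.40, the widest of the 15 member probes. The next widest was 2.12 for the main Vim probe, and the other 13 ranged from 0.32 to 1.59. In p75-47, the p75 tumor in which this probe was measured, the reference was at 9.53 and the tumor at 9.23, while both colors stayed at or below 7.03 in the other 8 p75 tumors. The part of the arrays in this split was not tested.

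Markers of endothelial cells, which express Zeb2, moved in part with this split in their summed tumor signal, and through 1 gene. The sum over 8 markers was 3229 to 35309 in all 9 p75 and 30355 to 312481 in all 8 p110 tumors, with overlap, since p75-90 (35309), where the Zeb2 probe was not measured, lay above p110-314 and p110-416. In the solid carcinomas alone it was 3416 to 15920 in the 3 p75 and 30355 to 312481 in the 6 p110 tumors, without overlap. Taken singly, 3.39% of all probes did not overlap between these 2 groups, which were also scanned in different years. Esam, an adhesion molecule of endothelial cells, was singled out after its values were seen. It made up 12.1% to 48.9% of the endothelial sum in the p75 and 80% to 98% in the p110 solid carcinomas. Without Esam the sums were 2530 to 8128 and 3450 to 9845, with overlap. For Esam the reference also differed, at 8.52 to 12.5 (log2 signal) with the p75 and 14.4 to 15.3 with the p110 solid carcinomas. Of the 8 endothelial markers, Vwf and Esam were measured in 17 tumors, Emcn in 16, Kdr in 14 and Cldn5 in 13. Cdh5 was measured in 11, Tek in 6 and Pecam1 in 0. The part of endothelial cells in the Zeb2 values was not tested.

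For A_52_P596008, the main Zeb2 probe, the reference signal was between 10.1 and 10.8 on p75 arrays and between 11.4 and 11.7 on p110 arrays.

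A_52_P587928 was measured in 4 tumors, all p110, with ratios of 2.03 in p110-143, 0.38 in p110-121, -0.22 in p110-416 and -0.44 in p110-314. The 2 highest tumors for A_52_P596008 (p110-121 and p110-225) and for this probe (p110-143 and p110-121) share p110-121, the tumor with the low epithelial and high immune marker sums. The 3 genes whose ratios followed A_52_P596008 most closely over 17 tumors were Wdfy4 (r = 0.88), Serpina3g (r = 0.88) and Qk (r = 0.88). Without p110-121 the r values were 0.78, 0.78 and 0.76. The part of immune cells in the Zeb2 values was not tested.

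**Figure D2:**
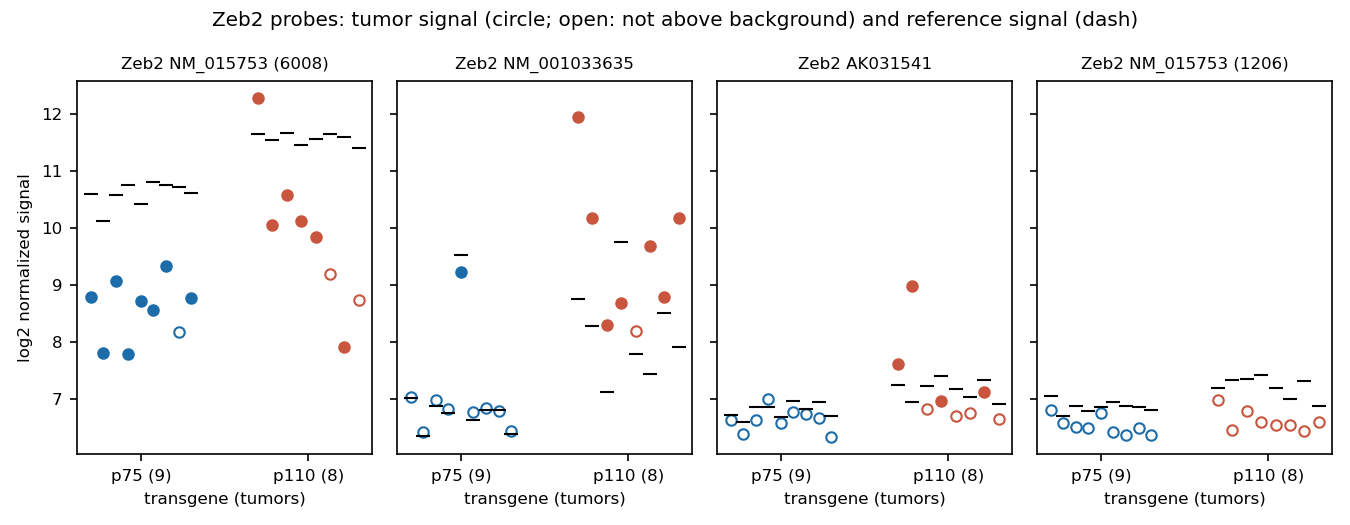
Normalized log2 signal of the tumor (circles, filled where above background on all arrays) and of the common reference (dashes) for the 4 Zeb2 probes, by transgene, 1 circle and 1 dash for each of 9 p75 and 8 p110 tumors. In the second panel, A_52_P526372, 1 p75 and 7 p110 circles are filled, and the dashes go from 6.35 to 9.75.

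Vim (A_51_P392687, mm7 chr2:13521763-13521822, plus strand) was well below the reference in every tumor, from -5.80 in p75-129 and p110-416 to -1.85 in p110-121, with a median of -4.04. The high-Wnt values were -2.08 in p110-374, -2.58 in p110-225, -3.37 in p75-94, -4.18 in p75-80 and -5.16 in p75-47. The low-Wnt values went from -5.80 through a median of -4.04 to -3.22 in p75-534. The 2 highest high-Wnt values lay above all low-Wnt tumors and the other 3 lay within their range, and the difference of 0.68 ± 0.66 (SE) was smaller than the SD of 1.23 among high-Wnt tumors (exact permutation p = 0.283, n = 5 and 7). Without the dim tumors it was -0.08, and with median centering it was -0.27. Leaving out p75-47 alone gave 1.10, the highest of 29 alternatives. By histology, the 2 adenomyoepitheliomas had -2.08 (the dim p110-374) and -2.91, the 4 adenosquamous carcinomas -5.16 to -3.37, and the 9 solid carcinomas, which hold the highest value, -5.80 to -1.85.

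The genes with ratios most like those of Vim were Lgals1 (galectin-1, r = 0.87), Fam171a1 (r = 0.86) and Aldh3b1 (r = 0.86), and for Zeb1 they were Trbv14, a T cell receptor segment (r = 0.86), Antxr2 (r = 0.85) and Phldb1 (r = 0.84). These are correlations over 17 tumors that share the reference and the arrays of each tumor. Without p110-121 the r for these 6 genes was 0.82 to 0.86. Of 10 fibroblast markers, 8 to 10 were above background in each high-Wnt tumor and 9 to 10 in each low-Wnt tumor. Their summed tumor signal was 35376 to 176286 in high-Wnt and 7706 to 142582 in low-Wnt tumors, with the lowest sum in p110-416, where Vim was also at its lowest. The part of fibroblasts in the Vim values was not tested.

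**Figure D3:**
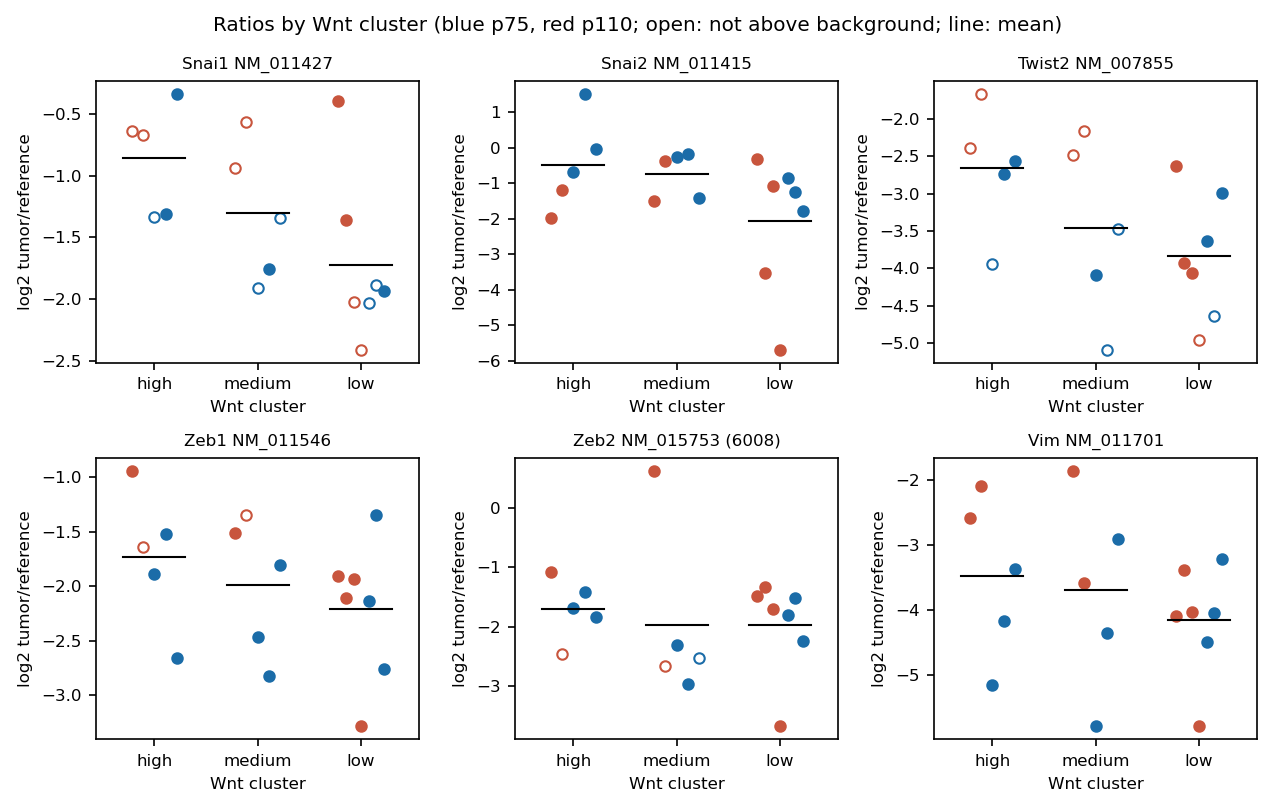
Log2 ratio of tumor over reference for 6 member probes by Wnt cluster (5 high, 5 medium and 7 low tumors), with p75 tumors in blue, p110 tumors in red, open circles where the tumor was not above background on all its arrays, and a line at the mean. In each panel the high and low clusters overlap.

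High-Wnt against low-Wnt tumors, the comparison that asks whether these genes follow Wnt gene expression, called 0 of the 15 member probes (limma, Benjamini-Hochberg adjusted p under 0.05 over all probes), while 0.0947% of all 41174 probes were called. Without adjustment 5 of the 15 had p under 0.05, all higher in high-Wnt tumors, against 11.5% of all probes. These 5 were the probes of Snai1, Twist1 and Twist2, the Cdh2 probe A_51_P262773 and the Vim probe A_52_P287532. None of the 5 was above background in more than 7 of the 12 tumors, and the last 2 were above background in 0. High-Wnt and low-Wnt values were free of overlap for 0 of the 15 probes and for 1.48% of all probes. The difference was above 0 for 13 of 15 probes with a median of 0.38, while the median over all probes was 0.01. Those above 0 include probes below background in every tumor, namely A_51_P262773 and A_52_P322725 of Cdh2, A_52_P287532 of Vim and A_51_P121206 of Zeb2. The count above 0 was 9 with the quantile-normalized tumor channel (median 0.09), 13 with that channel after loess and Aquantile (0.13), 10 without the dim tumors (0.20), 11 with median centering (0.11), 12 with Feature Extraction signals (0.67) and 14 with the tumor in Cy3 (0.40). It was 7 of 7 among the members above background in at least 5 tumors and 9 of 9 with the brightest probe of each gene, both with a median of 0.68, and the latter 9 include the Cdh2 probe measured in 0 tumors. The unadjusted count of 5 was 1 with the tumor channel in either normalization and 3 without the dim tumors or with median centering. The smallest adjusted p among the members was 0.224.

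The histology comparison set the 4 p75 adenosquamous carcinomas, which hold squamous and glandular areas, against the 3 p75 solid carcinomas. It called 0 of 15 member probes and 0% of all probes, so it gives no background of calls to read the members against. With 4 against 3 tumors the exact test cannot go below p = 0.0571. Snai2 was 1.51, -0.04, -0.67 and -0.85 in the adenosquamous and -0.27, -1.24 and -1.78 in the solid carcinomas, a difference of 1.08 ± 1.11 (SE, exact permutation p = 0.229). That difference was 0.58 without p75-80 and 1.92 against all 9 solid carcinomas. Vim was -3.37, -4.18, -4.50 and -5.16 against -3.22, -4.04 and -5.80, which is 0.05 ± 0.87 (SE) apart, and -0.67 without p75-129 and 0.62 without p75-534. For both genes the histologies overlapped.

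Zeb1 was -1.52, -1.89, -2.14 and -2.66 in the adenosquamous and -1.35, -2.47 and -2.76 in the p75 solid carcinomas, 0.14 ± 0.50 (SE) apart. Zeb2 by A_52_P596008 was -1.42, -1.69, -1.81 and -1.84 against -1.51, -2.24 and -2.31, with a difference of 0.33 ± 0.72 (SE). Twist2 was -2.56, -2.73, -3.64 and a limit of -3.94 against -2.99, -4.09 and a limit of -4.63, with a difference of 0.69 ± 0.66 (SE), which was 0.32 without p75-150 and 1.14 without p75-534. Without the same 2 tumors the Zeb1 difference was 0.56 and -0.14, and that of Zeb2 was 0.59 without p75-150 and 0.19 without p75-129. The histologies overlapped for all 3 genes. The exact permutation p was 0.8 for Zeb1 and 0.229 for both Zeb2 and Twist2 (n = 4 and 3). Unadjusted limma p was under 0.05 for 1 of 15 member probes against 2.85% of all probes, and the values did not overlap for 2 of 15 against 5.02%. The 1 probe was the Cdh2 probe A_52_P322725, 0.18 higher, which was above background in no tumor. The 2 probes were this one and A_52_P526372 of Zeb2, measured in p75-47 alone of these 7 tumors.

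The third comparison asked whether solid carcinomas of the 2 transgenes differ, 3 p75 against 6 p110 tumors. It called 0 of 15 member probes and 0% of all probes, with 1 of 15 at unadjusted p under 0.05 against 6.66%, and no overlap for 1 of 15 against 3.39%. Both of these counts were again the Cdh2 probe A_52_P322725, below background everywhere, with -0.17 as the difference. The unadjusted count depended on the setting. It was 4 of 15 without p110-225, with median centering, or over all 9 p75 and 8 p110 tumors. It was 0 of 7 among members above background in at least 5 tumors and 0 of 9 with the brightest probe of each gene. The number of members called stayed 0 in all 26 alternatives. Snai2 went from -5.69 to -0.30 in p110 with a median of -1.74, and 2 of the 3 p75 values lay inside this range and the third (-0.27) just above it. The Snai2 difference was 1.25 ± 1.03 (SE, exact permutation p = 0.333, n = 3 and 6). It was 0.58 without p110-416, the lowest of 26 alternatives, and 2.63 at the highest. Vim went from -5.80 to -1.85 in p110, with a median of -3.71 and a difference of -0.73 ± 0.81 (SE). Zeb2 by A_52_P596008 went from -3.68 to 0.63, with a median of -1.41 and a difference of -0.58 ± 0.67 (SE). With the tumor signal after loess and Aquantile that Zeb2 difference was -1.65, from means of 8.48 in p75 and 10.1 in p110 (log2).

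Zeb1 and Twist2 also overlapped between p75 and p110 solid carcinomas. Zeb1 went from -3.29 to -0.94 in p110 and differed by -0.25 ± 0.47 (SE), and Twist2 went from -4.96 to -2.40 and differed by -0.49 ± 0.61 (SE). The exact permutation p was 0.524 for Vim, 0.548 for Zeb2, 0.667 for Zeb1 and 0.429 for Twist2 (n = 3 and 6). The sign of these 4 differences turned with median centering, where they were 0.37, 0.43, 0.77 and 0.51 in that order. That of Vim also turned with the tumor channel, to 0.37 quantile normalized and 0.29 after loess and Aquantile. Leaving out 1 tumor moved all 4. The Vim difference was -0.0049 without p75-129, -0.37 without p110-121, -1.16 without p110-416 and -1.30 without p75-534. The Zeb2 difference was -0.16 without p110-121 and -1.02 without p110-416. The Twist2 difference ranged from -0.13 (without p75-150) to -0.95 (without p75-534), and that of Zeb1 from 0.04 (without p75-534) to -0.67 (without p75-150).

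**Figure D4:**
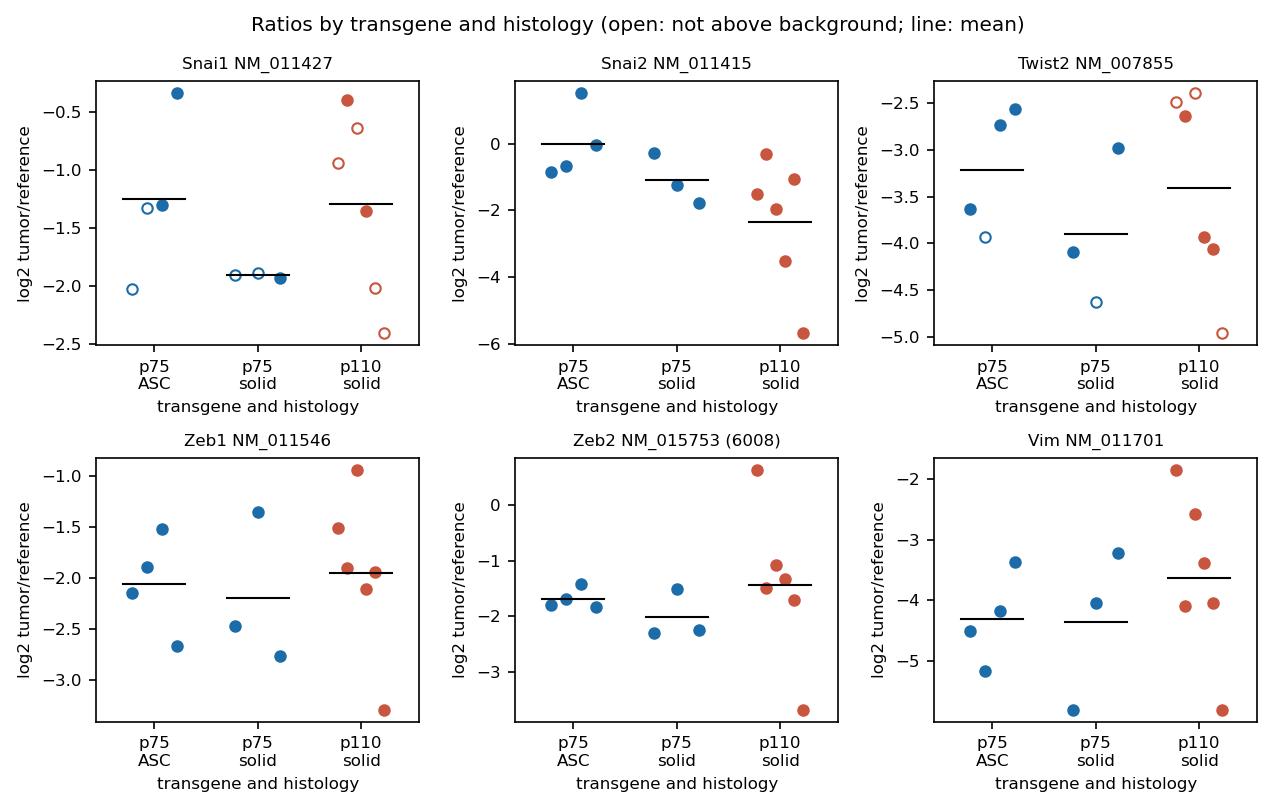
Log2 ratio of tumor over reference for 6 member probes in 4 p75 adenosquamous (ASC), 3 p75 solid and 6 p110 solid carcinomas, with open circles where the tumor was not above background on all its arrays and a line at the mean. The p110 solid carcinomas spread most for Snai2, from -5.69 to -0.30.

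The contrast of high-Wnt against low-Wnt tumors was also taken within each transgene. Vim was 2.00 higher in the 2 high-Wnt p110 tumors than in the 4 low-Wnt p110 tumors, and -0.31 in 3 high-Wnt against 3 low-Wnt p75 tumors, with a difference between these of -2.31 ± 1.15 (SE, limma unadjusted p = 0.0664, adjusted p = 0.477). The Vim tumor signal (log2) was 12.4 and 13.5 in the 2 high-Wnt p110 tumors and 10.8 to 13.1 in the 4 low-Wnt ones, with overlap, while the reference was at 15.6 in p110-374 and lower in p110-225, against 15.4 to 16.6. For Vim the reference also differed with the transgene, at 16.6 to 17.1 with p75 and at most 16.6 with p110 tumors. Zeb1 was 1.02 higher in p110 and 0.06 in p75. Twist2 was 1.86 and 0.67 higher in that order, and Snai1 0.89 and 0.96. The interaction called 0 of 15 members, against 0.00729% of all probes, and 3 of 15 had unadjusted p under 0.05, against 11.4%. These 3 were the probe of Twist1, measured in p110-314 alone, and A_51_P262773 of Cdh2 and A_52_P287532 of Vim, each measured in 0 tumors, so their values are not read further. Both high-Wnt p110 tumors, p110-225 and p110-374, are among the 3 with under 25% of probes above background, so the p110 contrast could not be fitted without them.

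Pairs of the 4 genes measured in at least 12 tumors were compared across the 17 tumors, 6 pairs in all. Zeb1 and Zeb2 had the highest correlation (Pearson r = 0.57, permutation p = 0.0150, adjusted 0.0796, Spearman rho = 0.49, permutation p = 0.0475, adjusted 0.182). It was 0.66 within p75 and 0.55 within p110 tumors, where the exact p was 0.0565 and 0.152. Without the 2 tumors farthest in Zeb1 it was 0.37 over all tumors, 0.40 within p75 and -0.06 within p110, so the p110 value rested on 2 tumors. Vim and Zeb1 gave r = 0.52 and rho = 0.47 (permutation p = 0.0316 and 0.0608, adjusted 0.0796 and 0.182). Here r was 0.80 within the 8 p110 tumors (exact permutation p = 0.0205, adjusted 0.119) and -0.02 within the 9 p75 tumors. Whether these 2 values differ was not tested. Without the 2 tumors farthest in Vim, r was 0.47 over all tumors and 0.51 within p110. Vim and Zeb2 gave r = 0.50 and rho = 0.29 (permutation p = 0.0398 and 0.259, adjusted 0.0796 and 0.388), with 0.69 within p110 and -0.10 within p75 tumors, and 0.42 without the same 2 tumors. Within p110 it was -0.15 without the 2 tumors farthest in Vim, so that relation rested on them. Without p110-121 and p110-416, which stand at opposite ends for Vim and Zeb2, that r was -0.002.

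For Snai2, r was 0.34 with Zeb1, 0.23 with Zeb2 and 0.07 with Vim, with rho of -0.06, -0.12 and -0.38 (permutation p of r = 0.182, 0.336 and 0.799). Without p110-416, r was -0.08, -0.23 and -0.44, so the sign of each r over all tumors rested on that tumor. Over all 17 tumors the 6 pairs had adjusted p above 0.05, by Pearson and by Spearman. Without the 3 dim tumors (n = 14), Zeb1 and Zeb2 had r = 0.73 (permutation p = 0.00172, adjusted 0.0103) and rho = 0.71 (adjusted 0.0355), and r was 0.52 without the 2 tumors then farthest in Zeb1. Vim and Zeb2 had r = 0.64 (permutation p = 0.0151, adjusted 0.0454) but rho = 0.33 (adjusted 0.420), and r was 0.38 without the 2 tumors then farthest in Vim. The other 4 pairs did not pass, with r of 0.41 for Vim and Zeb1 and of 0.11 to 0.44 for the pairs with Snai2.

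**Figure D5:**
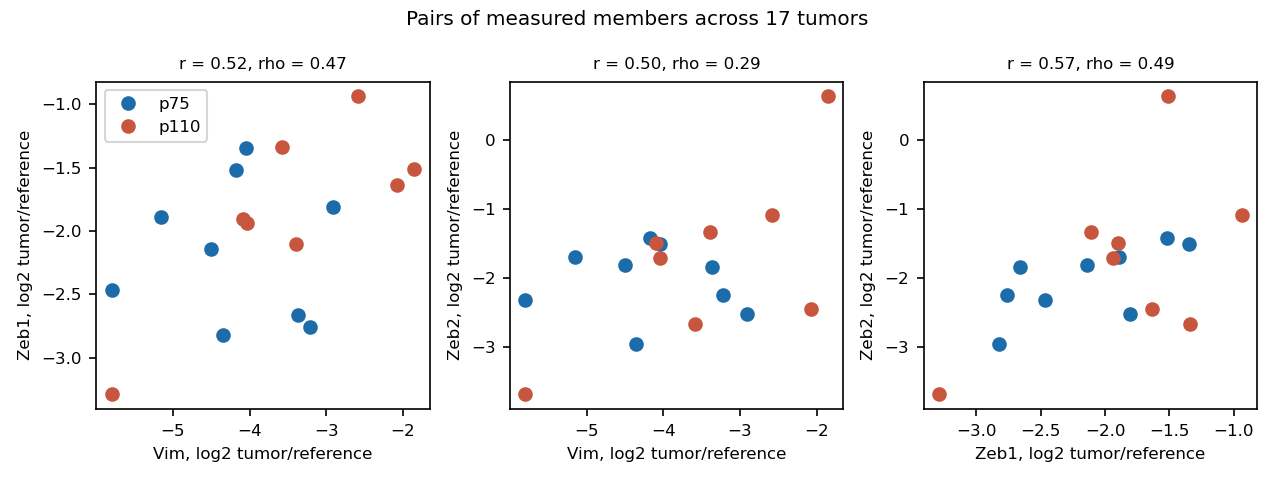
Log2 ratios of Vim, Zeb1 and Zeb2 (brightest probes) against each other, 1 point for each of 17 tumors, with p75 in blue and p110 in red. The point at the lower left of each panel is p110-416, and the highest Zeb2 value, 0.63, is p110-121.

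The genes around these factors were described from lists. Of 14 partner and other transition factors, 1 was called in high-Wnt against low-Wnt tumors, against 0.0947% of all probes, and 4 had unadjusted p under 0.05, all higher, against 11.5%. The called gene was Foxc2, a forkhead factor, 1.45 ± 0.24 (SE) higher (limma adjusted p = 0.0348), but it was above background in 1 of 5 high-Wnt and 2 of 7 low-Wnt tumors. It passed without p75-80, p75-101 or p75-150 and did not pass without any 1 of the other 9 tumors compared (limma adjusted p = 0.0539 to 0.108). Its difference was 0.11 with the quantile-normalized tumor channel and 1.01 after loess and Aquantile, where it did not pass either. The median difference of this list was 0.34. Of 16 mesenchymal state genes 0 were called and 5 had unadjusted p under 0.05, all higher in high-Wnt tumors, against 11.5% of all probes, with a list median of 0.77. Among them were the matrix metalloproteases Mmp9 (1.92 ± 0.48 SE, adjusted p = 0.118) and Mmp14 (1.49 ± 0.68 SE, adjusted p = 0.419). Mmp9 was above background in 3 of 5 high-Wnt and 3 of 7 low-Wnt tumors, and its values overlapped between the clusters.

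Of 17 epithelial junction and keratin genes 0 were called and 6 had unadjusted p under 0.05, all lower in high-Wnt tumors, against 11.5% of all probes, with a list median of -0.19. The tight junction gene Cldn7 was -1.34 ± 0.35 (SE, adjusted p = 0.129) and did not overlap between the clusters, as was the case for 1.48% of all probes. Ocln, encoding occludin, was -0.54 ± 0.16 (SE, adjusted p = 0.174), and was above background in 1 of 5 high-Wnt and 6 of 7 low-Wnt tumors. Of 11 epithelial state regulators on the array 0 were called, with 2 unadjusted higher and 1 lower, against the same 11.5%, and a median of -0.08. The Krüppel-like factors Klf4 and Klf5 were 2.35 ± 0.69 and 1.23 ± 0.30 (SE) higher (adjusted p = 0.179 and 0.115). Of 13 Snail cofactors and turnover genes 0 were called, with 2 unadjusted higher and 1 lower, against 11.5%, and a median of 0.06. Among them were Ctbp1, a corepressor, at -0.51 ± 0.19 and the kinase Pak1 at 0.45 ± 0.20 (SE). Of 13 genes of TGF-beta and receptor inputs 0 were called, with 2 unadjusted lower, against 11.5%, and a median of -0.13, namely the TGF-beta receptor Tgfbr1 at -0.81 ± 0.28 and Met, the receptor of hepatocyte growth factor, at -1.49 ± 0.56 (SE).

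Markers of other cell types were described the same way, and their unadjusted counts stand against the 11.5% of all probes. Of 7 squamous markers 0 were called and 4 were unadjusted higher in high-Wnt tumors, with a median of 0.47, and Sprr1a, a cornified envelope gene, was 3.34 ± 0.81 (SE) higher (adjusted p = 0.113). Of the 8 basal markers 0 were called and the median was 1.31. The keratin Krt14 was the 1 unadjusted higher, at 1.95 ± 0.89 (SE), and the oxytocin receptor Oxtr, named after its value was seen, the 1 unadjusted lower, at -0.57 ± 0.21 (SE) and above background in 0 of 5 high-Wnt and 2 of 7 low-Wnt tumors. Krt5, which did not pass unadjusted, was at 3.26 ± 1.59 (SE). Of 8 endothelial markers 2 were unadjusted lower with a median of -0.56, and of 8 luminal markers 1 was lower with a median of -0.03. The medians of the 10 fibroblast, 10 immune and 6 adipocyte markers were 0.63, 0.06 and -0.49, with 0 at unadjusted p under 0.05. All 13 lists had 0 called genes in the histology and the transgene comparison.

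Without the dim tumors 0 genes of the 13 lists were called in high-Wnt against low-Wnt tumors, against 0.0777% of all probes, and Foxc2 stood at 1.30 (limma adjusted p = 0.161). Unadjusted p was under 0.05 for 2 of 16 mesenchymal state genes, both higher, and for 4 of 17 epithelial junction and keratin genes, 1 higher and 3 lower, against 8.1% of all probes. The median was 0.48 for the mesenchymal and -0.39 for the epithelial list, and 0.16 for the partner factors. The median of the basal markers was 0.0046, that of the adipocyte markers -1.78, and that of the immune markers turned to -0.07. The medians of the squamous, luminal, fibroblast and endothelial markers were 0.22, -0.38, 0.37 and -0.57. For the epithelial regulators, the Snail cofactors and the TGF-beta inputs they were -0.14, 0.18 and -0.22. The 15 list genes named above kept their sign. Krt14 was then at 3.26 and Tgfbr1 at -0.40, while the others moved by less than 1.5 times.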

How the data were processed

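RNA from laser-dissected epithelial cells was amplified in 2 rounds by the authors, which can move signal toward transcript ends. Values in the authors' deposited table are log2 (tumor/reference), and rebuilding it from the scanner files (normexp with an offset of 50, loess, mean of dye-swapped arrays) gave a largest difference of 4.98e-08. The intensity and background values and the above-background marks in the deposited scanner files come from the authors' Feature Extraction runs (38 arrays, 15 slides, 10 scan days). No probe was dropped and no value imputed. Normalized signals of a single color came from loess and Aquantile.

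Contrasts were fitted in R 4.3.3 with limma 3.58.1 on all 41174 probes and 17 tumors, with 3 clusters or 7 transgene and histology groups. Exact permutation tests and correlations (100000 resamples, exact under 10 tumors) used scipy 1.17.1 and figures matplotlib 3.10.9. Scripts were tested on simulated data. Number of arrays and weak signal limit the precision, and p-values measure the spread between single tumors of separate mice. Named genes were all members, list genes that passed or otherwise the 2 with the smallest high-Wnt against low-Wnt p among those measured in most tumors compared (at least 1 in 2), and the 3 most alike genes. Members and lists were chosen with earlier results of these data known. The clusters are those drawn in the study. Symbols came from the RefSeq table for 22951 probes by accession (32719 with matches by symbol), and the others kept the files' names. Alternatives covered background, loess, scaling, dye, filter, slide, scan day, samples and each tumor left out. Leaving out p110-98, p110-225 and p110-374, or, in relations, p110-121 and p110-416, was chosen after seeing the data, as was comparing tumor signals after loess and Aquantile beside the quantile-normalized tumor channel.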

Additional observations from a re-analysis of the deposited data

Results flagged for a closer look

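Of 75 groups of 4 to 7 tumors tested over the 15 probes, 8 had a value far from the others by Dixon's criterion at 95%, where chance gives about 5% of groups. For the Zeb2 probe A_52_P596008 these were p110-121 at 0.63 among medium-Wnt tumors, next to -2.31, and p110-416 at -3.68 among low-Wnt tumors, next to -2.24. For the Zeb2 probe A_52_P587928, p110-143 stood at 2.03, next to 0.38 among p110 solid carcinomas and to -0.10 among low-Wnt tumors, and p75-94 at -0.37 among adenosquamous carcinomas, where it was not above background. For the Zeb2 probe A_52_P526372, p75-47 stood at -0.30 among adenosquamous carcinomas, next to 0.02. The other 2 values were not above background, p75-47 at -0.10 for the Zeb2 probe A_51_P121206 among high-Wnt tumors and p75-80 at -0.034 for Snai3 among adenosquamous carcinomas. The causes were not tested.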

How the results depend on the processing

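For high-Wnt against low-Wnt tumors, 39 probes were called, and 0 without background correction, with median centering or with scaled arrays, 5 with Feature Extraction signals, 13 from the quantile-normalized tumor channel, 42 from that channel after loess and Aquantile (added after seeing the data), 10 and 11 with the tumor in Cy5 or Cy3 alone, 65 with the brightest probes, 8 with trended robust variances, 125 with the 2 clusters alone and 105 with the transgene as a block. With slides as a random block and arrays as observations 2409 were called, 1 of them a member, but the 38 arrays there are repeats of 17 tumors and not separate replicates. Leaving out 1 tumor gave 6 (without p110-374) to 48 calls. Of the members, Zeb2 (A_52_P596008) turned to -0.26 with Feature Extraction signals, -0.56 with median centering, -0.38 from the quantile-normalized tumor channel (0.13 after loess and Aquantile) and -0.014 without p110-416. Median centering turned Vim to -0.27 and Zeb1 to -0.34, the quantile-normalized tumor channel turned Cdh2 (A_51_P262773) to -0.021 and Snai1 to -0.029 (0.047 and 0.60 after loess and Aquantile), and leaving out p110-98, p110-225 and p110-374 turned Vim to -0.079 and Zeb2 (A_52_P526372) to -0.33. The last was -0.018 without p110-374. Over the tumors left out singly it ranged from -0.018 to 0.66, and A_52_P596008 from -0.014 to 0.46. Twist1 was 0.043 and 0.22 in these and 0.57 to 1.04 otherwise. Foxc2, the 1 list gene called, did not pass in 19 of 29 alternatives (0.11 to 1.79 over all). Snai2 and Twist2 kept a positive difference in all 29 alternatives (0.68 to 2.57 and 0.33 to 1.54).

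For adenosquamous against p75 solid carcinomas 0 probes were called, 1 with the tumor in Cy5 and 195 with slides as a random block, and 0 to 5 (without p75-101) with a tumor left out. Vim was -0.41 with median centering, -0.055 with slides as a block, -0.046 with the tumor channel after loess and Aquantile, -0.43 against all 9 solid carcinomas and -0.67 to 0.62 with a tumor left out (-0.26 without p75-94, -0.67 without p75-129). Zeb1 was -0.12 with median centering, -0.047 with slides as a block and -0.024 against all 9 and -0.14 to 0.56 with a tumor left out (-0.039 without p75-80, -0.14 without p75-534). Snai2 was 0.58 without p75-80 and 1.92 against all 9 solid carcinomas, and Twist2 was 0.32 (without p75-150) to 1.14 (without p75-534). Zeb2 (A_52_P596008) was -0.051 against all 9 solid carcinomas.

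For p75 against p110 solid carcinomas 0 probes were called, 5 without outlier spots, 1 without background correction, 2 with Feature Extraction signals, 1 with scaled arrays, 150 from the quantile-normalized tumor channel and 208 after loess and Aquantile, 1 in Cy5, 484 with slides as a block, 175 over all 9 p75 and 8 p110 tumors and 0 to 9 (without p110-121) with a tumor left out. Median centering turned Vim to 0.37, Zeb1 to 0.77, Twist2 to 0.51 and Zeb2 (A_52_P596008) to 0.43. Scaling turned Zeb1 to 0.31 and Twist2 to 0.19, and the tumor channel turned Vim to 0.37 quantile normalized and 0.29 after loess and Aquantile. Zeb1 ranged from -0.67 to 0.038 with a tumor left out (0.038 without p75-534), and Snai2 from 0.58 (without p110-416) to 1.65. Vim ranged from -1.30 (without p75-534) to -0.0049 (without p75-129), Twist2 from -0.95 to -0.13 and Zeb2 from -1.02 to -0.16 (A_52_P596008) and from -1.28 to -0.43 (A_52_P526372).

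Of the relations, Snai2 and Vim had r = -0.32 in p75 tumors, -0.44 without p110-416 and -0.42 without p110-121 and p110-416. Without p110-416, Snai2 had r = -0.085 with Zeb1 and -0.23 with Zeb2, and without both tumors -0.059 and -0.19. Vim had r = -0.020 with Zeb1 and -0.10 with Zeb2 in p75 tumors, and -0.0023 with Zeb2 without both tumors. Without p110-98, p110-225 and p110-374, Zeb1 and Zeb2 (r = 0.73) and Vim and Zeb2 (r = 0.64, 0.38 without the 2 tumors farthest in Vim) passed. The causes were not tested. Signal over background limits Snai1, Snai3, Twist1, Twist2 and Cdh2 most. No paired analysis was possible because replicate numbers here only name tumors of separate mice.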
